A study of Mus musculus with 6 samples.

Results

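Metallothioneins and the zinc transporters that act beside them are described here in orthotopic HCA-1 tumors. The 6 genes were taken by symbol, namely *Mt1*, *Mt2*, *Mtf1*, *Slc30a1*, *Slc30a10* and *Slc39a14*, out of 33444 genes that the deposited tables name by symbol, and all 6 were found. Metallothioneins are small cysteine-rich proteins that hold zinc and copper in the cytosol, and they are made in large amounts by hepatocytes. MTF-1, the product of *Mtf1*, senses free zinc and switches on the metallothionein genes and *Slc30a1* through short metal response elements in their promoters. Transporters of the SLC30 family move zinc out of the cytosol, those of the SLC39 family move it in, and in the liver *Slc39a14* and *Slc30a10* also carry manganese.

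HCA-1 is a murine HCC line that was implanted under the liver capsule of male C3H mice (C3H/HeNCrNarl in the methods) aged 6 to 8 weeks. The control group was 3 untreated tumors, numbered 5, 6 and 7. The treated group was 3 tumors, numbered 1, 2 and 5, from mice given intravenous nanogel loaded with glucose oxidase (GOx) and doxorubicin (DOX), called GOx-DOX-LGP, on days 18, 19 and 20. The same label dates the tumor analysis to day 17, before the first of these doses, and gives a circulation time of 3 h. The methods for PCR on tumors dosed on the same days place collection on the day after the last dose, but give no day for the sequenced tumors, so the interval between dosing and sampling is not settled. The study compared untreated with treated tumors, and no group with empty nanogel was analysed here, so that the carrier and its cargo cannot be told apart. Library totals ran from 15529940 to 18401178 counts.

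The control tumors differed in hepatocyte marker RNA. The summed level of 18 hepatocyte markers, all of them detected, was 769 CPM in control 5, 150284 in control 6 and 241813 in control 7. In the treated tumors it was between 1676 and 4186 CPM. CPM here are counts per 1000000 of a library size multiplied by its TMM factor. These factors were 0.759 in control 6, 0.569 in control 7 and between 1.21 and 1.24 in the other libraries. CPM of controls 6 and 7 thus stand above their shares of the counts, and those of the other libraries below. *Alb*, *Ttr* and *Apoa1* followed this split, and *Alb* in the lower of controls 6 and 7 was 39.0-fold above the highest of the other libraries. The liver cancer markers *Afp* and *Gpc3* were low everywhere, with a sum between 3.04 and 15.4 CPM. Macrophage markers summed to between 825 and 1668 CPM in controls and to between 1617 and 4297 CPM in treated tumors. Fibroblast markers summed to between 1412 and 5773 CPM in controls and to between 2222 and 6951 CPM in treated tumors, and endothelial markers to between 154 and 469 CPM and between 110 and 163 CPM. In bulk tumor RNA, fewer cells of a type and less RNA per cell cannot be told apart. The part of tissue composition in the differences below was not tested. A fit with a hepatocyte term and values without single libraries are given as descriptions. They cannot separate composition from treatment, because the hepatocyte markers were high in controls 6 and 7 only.

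The promoters of the metallothioneins and of both SLC30 exporters are shown because MTF-1 acts through letters of this kind. The windows are 300 bases of RefSeq sequence on GRCm38.p6, from 250 bases before to 50 after the annotated start, written 5′ to 3′ on the plus strand. Capitals mark the core of the metal response element, searched as TGCACNC and TGCGCNC on both strands. The windows are chr8:94178839-94179138 for *Mt1*, chr8:94172368-94172667 for *Mt2*, chr1:191906531-191906830 for *Slc30a1* and chr1:185454598-185454897 for *Slc30a10*.
Mt1: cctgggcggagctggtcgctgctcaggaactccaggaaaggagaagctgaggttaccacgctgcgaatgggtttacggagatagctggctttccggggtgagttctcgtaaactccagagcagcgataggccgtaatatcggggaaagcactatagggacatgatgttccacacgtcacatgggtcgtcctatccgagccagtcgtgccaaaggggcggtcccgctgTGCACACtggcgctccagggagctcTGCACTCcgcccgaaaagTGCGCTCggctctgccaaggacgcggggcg
Mt2: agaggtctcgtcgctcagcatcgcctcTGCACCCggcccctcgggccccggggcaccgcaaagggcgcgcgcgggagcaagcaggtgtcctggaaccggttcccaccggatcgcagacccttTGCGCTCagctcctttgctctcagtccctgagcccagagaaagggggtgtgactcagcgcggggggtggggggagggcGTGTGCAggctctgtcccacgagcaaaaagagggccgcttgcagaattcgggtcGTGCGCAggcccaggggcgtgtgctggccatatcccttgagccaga
Slc30a1: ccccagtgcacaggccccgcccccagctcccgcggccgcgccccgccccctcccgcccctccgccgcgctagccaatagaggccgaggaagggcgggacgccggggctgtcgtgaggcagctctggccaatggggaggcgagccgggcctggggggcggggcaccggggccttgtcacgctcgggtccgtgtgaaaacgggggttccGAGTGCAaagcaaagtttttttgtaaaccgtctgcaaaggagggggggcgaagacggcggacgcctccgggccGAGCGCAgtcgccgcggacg
Slc30a10: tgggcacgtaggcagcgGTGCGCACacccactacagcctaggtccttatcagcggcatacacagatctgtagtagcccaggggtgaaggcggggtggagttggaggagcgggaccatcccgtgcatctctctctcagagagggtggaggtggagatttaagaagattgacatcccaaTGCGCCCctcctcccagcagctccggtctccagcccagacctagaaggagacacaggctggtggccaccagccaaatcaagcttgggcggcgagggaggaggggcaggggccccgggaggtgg

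The *Mt1* window held 3 matches, all on the plus strand and all near the annotated start. The *Mt2* window held 4 matches, 2 on each strand. The *Slc30a1* window held 2, both on the minus strand, and the *Slc30a10* window held 3, of which the first and second overlap each other on opposite strands. The window of *Mtf1* held none of these letters. Of 32851 windows of this length, 25.7% held at least 1 match, 7.11% at least 2, 1.97% at least 3 and 0.517% at least 4. Among the other zinc family genes, 12 of 25 windows (48.0%) held at least 1. Windows were matched by symbol for 5 members, all but *Slc39a14*. A match is a description of sequence and does not show binding.

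*Mt1* (ENSMUSG00000031765), the more abundant metallothionein of these tumors, lies on chromosome 8 of GRCm38 from 94179082 to 94180327, and *Mt2* (ENSMUSG00000031762) lies 5513 bases before it, from 94172664 to 94173568. Levels are given in CPM scaled by TMM factors, which correct for differences in RNA composition. *Mt1* measured 68.8, 296 and 42.9 CPM in controls 5, 6 and 7, against 102, 102 and 129 CPM in treated tumors 1, 2 and 5. The highest and the lowest value of all libraries were thus both control tumors, and the treated tumors lay between them. Controls 6 and 7, both with abundant hepatocyte RNA, differed 6.89-fold in *Mt1* in TMM-scaled CPM. The treated tumors differed among themselves by at most 1.27-fold. Raw counts were 1568, 3490 and 399 in controls 5, 6 and 7, against 2057, 2077 and 2487 in treated tumors 1, 2 and 5, so that these folds depend on scaling. *Mt1* had a log2 fold change of -0.29 (standard error 0.72, 95% interval -2.04 to 1.46), which the quasi-likelihood test of edgeR did not call (adjusted p = 0.818). The interval holds changes in either direction, so these libraries do not settle whether *Mt1* changed.

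*Mt2* followed a like order of libraries at a much lower level. It measured 2.06, 6.28 and 0.646 CPM in controls 5, 6 and 7, against 3.11, 3.77 and 4.01 CPM in treated tumors 1, 2 and 5. Control 6 was again the highest library and control 7 the lowest, 9.72-fold apart, and the groups overlapped. The log2 fold change was 0.28 (standard error 0.74, 95% interval -1.54 to 2.09, adjusted p = 0.835 from edgeR). Over the 6 libraries Pearson's r between log2 CPM of *Mt1* and *Mt2* was 0.920, a description of libraries that share depth and tissue content and not a test. Without control 6, the log2 fold change was 0.98 for *Mt1* and 1.37 for *Mt2*, with adjusted p of 0.583 and 0.591 from edgeR, so that the sign of *Mt1* turned without this library.

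**Figure D1:**
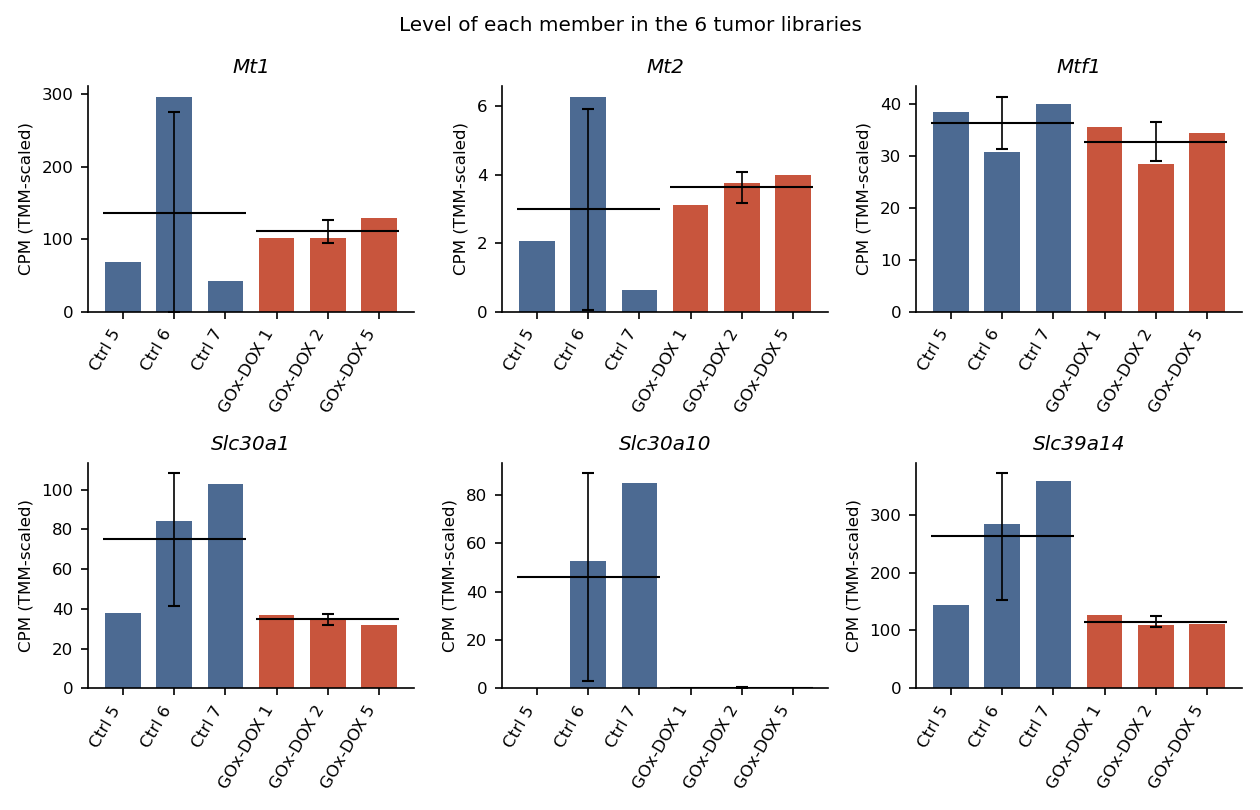
Level of each member in the 6 tumor libraries, in TMM-scaled CPM on linear axes that start at 0. Bars are single libraries (blue control, red GOx-DOX-LGP), black lines are group means and error bars 1 SD (n = 3), cut at 0. *Mt1* and *Mt2* are highest in control 6 and lowest in control 7, whereas *Slc30a1*, *Slc30a10* and *Slc39a14* are high in both.

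The ratio of the 2 metallothioneins does not depend on how libraries are scaled. *Mt2* made up 2.91% of the counts of both genes in control 5 (47 of 1615, 95% Wilson interval 2.20 to 3.85%), 2.08% in control 6 (1.66 to 2.60%) and 1.48% in control 7 (6 of 405, 0.681 to 3.19%). It made up 2.97% in GOx-DOX-LGP tumor 1 (2.33 to 3.78%), 3.57% in tumor 2 (2.87 to 4.45%) and 3.00% in tumor 5 (2.41 to 3.74%). Every treated tumor was above every control, but the intervals of controls 5 and 7 overlapped those of all treated tumors. On the log2 scale the ratio of *Mt2* to *Mt1* was -5.56 ± 0.50 (SD, n = 3) in controls and -4.93 ± 0.15 (SD, n = 3) in treated tumors, a difference of 0.63 with p = 0.1 (two-sided exact permutation test), the smallest p that 3 libraries against 3 can give. This difference was 0.38 without control 7, which had the fewest *Mt2* counts, and 0.88 without control 5.

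The counts of *Mt2* are less certain than those of *Mt1*. *Gm45774*, annotated on the opposite strand, covers 73.5% of the exon bases of *Mt2*, and the use of strand in counting is not given in the sources used here. Antisense genes also cover 8.09% of the exon bases of *Mtf1*, 8.92% of *Slc30a1* and 9.13% of *Slc30a10*. *Gm45774* itself had 2, 12 and 4 counts in controls 5, 6 and 7, against 5, 8 and 14 in treated tumors 1, 2 and 5. None of the stretches of 50 bases in *Mt1* transcripts occurs in another gene. Per kilobase of exon, *Mt1* had a mean level of 109 CPM in controls and 89.0 CPM in treated tumors, against 5.09 and 6.17 CPM for *Mt2*. The annotated exons of *Mt1* together cover 1246 bases, its whole gene, whereas those of *Mt2* cover 588 bases and leave part of its gene out. The values per kilobase are thus not on a like basis. The part of the overlapping gene in the difference between *Mt1* and *Mt2* was not tested. Together, without TMM scaling, both genes took 114 ± 104 CPM of the library totals (SD, n = 3) among controls, against 141 ± 21.0 CPM (SD, n = 3) among treated tumors (two-sided exact permutation test, p = 0.7). With TMM-scaled CPM, the difference of treated minus control turned from 27.2 to -24.3.

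*Mtf1* (ENSMUSG00000028890, chromosome 4, 124802104 to 124849800), the zinc sensor, had the smallest spread of the members in TMM-scaled CPM. It measured 38.5, 30.7 and 40.0 CPM in controls 5, 6 and 7, against 35.5, 28.4 and 34.3 CPM in treated tumors 1, 2 and 5. The groups overlapped, and the highest and lowest libraries differed by 1.41-fold. Its log2 fold change was -0.15 (standard error 0.20, 95% interval -0.65 to 0.34, adjusted p = 0.669 from edgeR), and this sign flipped with library totals or the upper quartile as scaling and in limma voom. Among the control tumors it varied by 1.30-fold at most in TMM-scaled CPM. Its raw counts were 877, 362 and 372 in controls 5, 6 and 7, against 719, 580 and 660 in treated tumors 1, 2 and 5. The small spread thus depends on TMM scaling.

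*Slc30a1* (ENSMUSG00000037434, chromosome 1, 191906767 to 191913247), which exports zinc across the plasma membrane, measured 38.0, 84.0 and 103 CPM in controls 5, 6 and 7. In treated tumors 1, 2 and 5 it measured 36.9, 35.4 and 31.8 CPM. All treated tumors lay below all controls, but control 5 was only 1.03-fold above the highest treated tumor, whereas the lower of controls 6 and 7 was 2.21-fold above the highest other library. The group means were 74.9 ± 33.3 CPM (SD, n = 3) for controls, against 34.7 ± 2.61 CPM (SD, n = 3) in treated tumors. *Slc30a1* had a log2 fold change of -1.11 (standard error 0.38, 95% interval -2.03 to -0.19), and its adjusted p in edgeR was 0.247. The size of this split depends on TMM scaling. Raw counts were 867, 991 and 954 in controls 5, 6 and 7, against 747, 723 and 612 in treated tumors 1, 2 and 5. With library totals alone as scaling, the log2 fold change was -0.40 (adjusted p = 0.508 from edgeR).

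*Slc39a14* (ENSMUSG00000022094, chromosome 14, 70303469 to 70351425), which imports zinc, manganese and non-transferrin iron and is abundant in liver, showed a like split. It measured 144, 284 and 359 CPM in controls 5, 6 and 7, against 126, 109 and 110 CPM in treated tumors 1, 2 and 5. Control 5 was 1.14-fold above the highest treated tumor, the groups did not overlap, and the lower of controls 6 and 7 was 1.98-fold above the highest other library. The group means were 262 ± 109 CPM (SD, n = 3) and 115 ± 9.69 CPM (SD, n = 3). EdgeR gave a log2 fold change of -1.19 (standard error 0.38, 95% interval -2.10 to -0.27, adjusted p = 0.247). Here too the size of the split depends on TMM scaling. Raw counts were 3277, 3353 and 3333 in controls 5, 6 and 7, against 2559, 2226 and 2123 in treated tumors 1, 2 and 5. With library totals alone as scaling, the log2 fold change was -0.49 (adjusted p = 0.505 from edgeR). Pearson's r of log2 CPM between *Slc39a14* and *Slc30a1* was 0.992 over the 6 libraries, which fall into a pair with abundant hepatocyte RNA and 4 without, and was below 0 between *Mt1* and either of them (-0.08 and -0.04).

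No gene of 15374 tested (0.0%) passed an adjusted p of 0.05 in edgeR, and 17.5% had an unadjusted p under 0.05. *Slc30a1* and *Slc39a14* were the 2 members with an unadjusted p under 0.05 (0.0259 and 0.0196), both lower, where 14.6% of all genes were lower at that level. They were also the 2 members without overlap of the groups, where 8.31% of all genes were lower without overlap. The median log2 fold change of the 5 members tested was -0.29, against 0.02 for all genes. In the fit without control 5, *Slc30a1* (log2 fold change -1.39, adjusted p = 0.000769 from edgeR) and *Slc39a14* (-1.45, adjusted p = 0.00127) passed the threshold, as did 25.5% of all genes in the same direction. Limma voom with sample quality weights also called both lower, beside 30.9% of all genes. With the mean of the hepatocyte markers as a covariate, the log2 fold change was -0.43 (standard error 0.18) for *Slc30a1* and -0.58 (standard error 0.18) for *Slc39a14*, with adjusted p of 0.689 and 0.581 from edgeR.

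*Slc30a10* (ENSMUSG00000026614, chromosome 1, 185454848 to 185468762), which exports manganese from hepatocytes into bile, was high in controls 6 and 7 and near 0 elsewhere. It had 2, 624 and 792 counts in controls 5, 6 and 7, against 7, 0 and 6 counts in treated tumors 1, 2 and 5. These counts correspond to 0.0877, 52.9 and 85.2 CPM in controls, and to 0.346 CPM, no counts and 0.312 CPM in treated tumors, where 0 counts allow up to 0.147 CPM in tumor 2 (3 counts, counting error only). Control 5 lay within the range of the treated tumors, so that the groups overlapped. The lower of controls 6 and 7 was 153-fold above the highest of the other libraries. The filter on low counts removed *Slc30a10* from the test over all 6 libraries. Without a filter the log2 fold change in edgeR was -7.57 ± 1.85 (standard error), at an adjusted p of 0.184, and DESeq2 gave -7.69 with an adjusted p of 0.000783, where 9.85% of genes with an adjusted p were called lower.

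**Figure D2:**
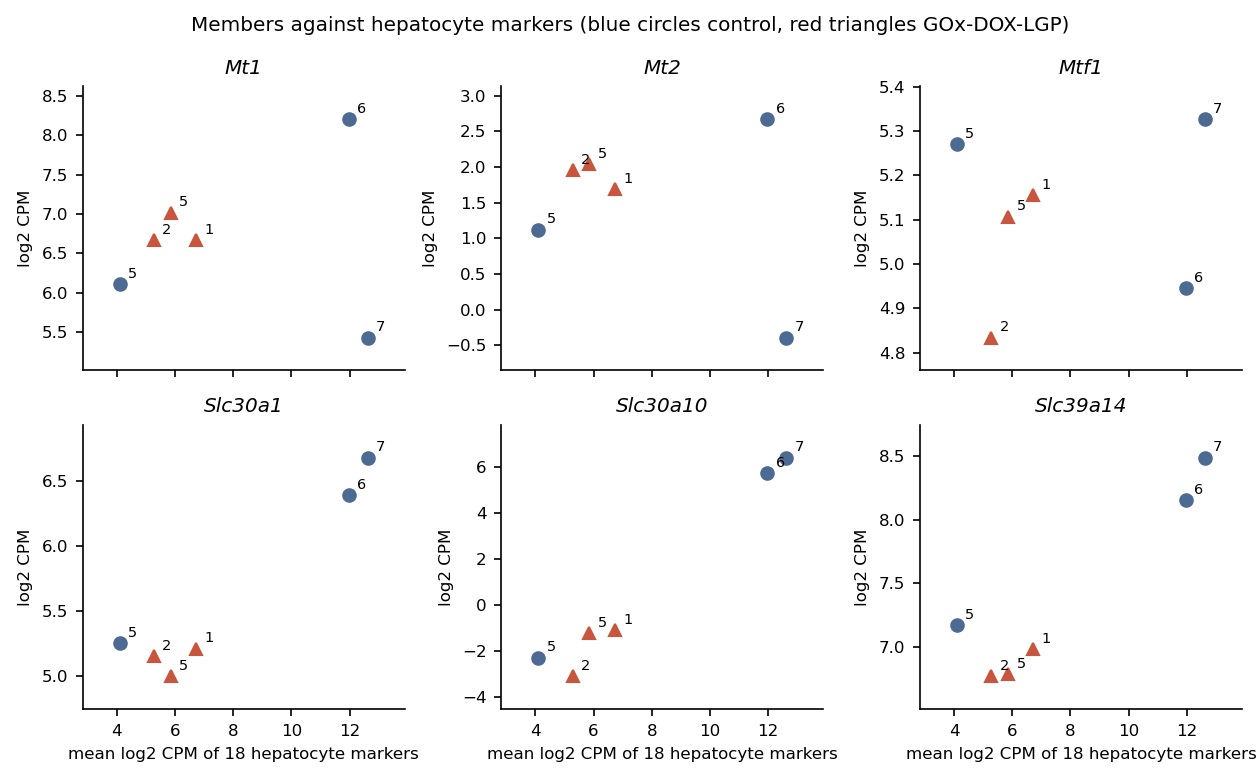
Log2 CPM of each member against the mean log2 CPM of 18 hepatocyte markers, 1 point per library (blue circles control, red triangles GOx-DOX-LGP, numbers as in the labels). Controls 6 and 7 stand at 11.97 and 12.62 on the horizontal axis and all other libraries at 6.73 or below. The 3 transporters are high in both of these controls, and *Mt1* and *Mt2* are high in control 6 and low in control 7.

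Of the other genes of these families, 22 of 23 listed were found by symbol, with *Slc30a8* not among them, and 16 were tested. *Mt3*, *Mt4*, *Slc30a2*, *Slc30a3*, *Slc39a5* and *Slc39a12* did not pass the filter on low counts. None of the 16 passed an adjusted p of 0.05 in edgeR, 4 were lower (14.6% of all genes) and 0 higher at an unadjusted p under 0.05, and 10 had a negative log2 fold change. Their median log2 fold change was -0.15, against 0.02 for all genes. In 5 of them the groups were fully apart, 4 lower and 1 higher (*Slc39a3*), where 8.31% of all genes were lower and 8.87% higher in this way.

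Among the 16 genes tested, *Slc39a4* and *Slc39a8* had the largest negative values. Both are importers, as are *Slc39a6* and *Slc39a13*, which had the largest positive values. *Slc39a4*, known for zinc uptake in the gut, measured 2.24, 30.4 and 57.2 CPM in controls 5, 6 and 7, and between 2.30 and 2.72 CPM in treated tumors (log2 fold change -3.59, standard error 1.06, adjusted p = 0.247 from edgeR). *Slc39a8*, the closest relative of *Slc39a14* and likewise a carrier of manganese, measured 6.05, 52.8 and 73.3 CPM in controls and between 4.32 and 6.27 CPM in treated tumors (log2 fold change -2.99, standard error 0.86). Control 5 was below the treated tumors in *Slc39a4* and within their range in *Slc39a8*, and controls 6 and 7 were high in both genes. *Slc39a9*, a Golgi importer, and *Slc30a9*, which clears zinc from mitochondria, had log2 fold changes of -0.81 (standard error 0.29) and -0.66 (standard error 0.31). Of 19 other zinc family genes with an adjusted p in DESeq2, 3 were called lower, beside 9.85% of all genes, namely *Slc39a4*, *Slc39a8* and *Slc30a3* (adjusted p of 0.00508, 0.00765 and 0.00901). *Slc30a3*, an exporter into vesicles that the filter had removed, had 1, 14 and 18 counts in controls 5, 6 and 7 and no counts in treated tumors.

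The largest positive values came from genes that were low in controls 6 and 7. *Slc39a6*, an importer of the LIV-1 group, measured 66.6, 19.6 and 10.2 CPM in controls 5, 6 and 7, and between 65.5 and 71.3 CPM in treated tumors (log2 fold change 1.09, standard error 0.67, adjusted p = 0.406 from edgeR). *Slc39a13*, an importer of the secretory pathway known from connective tissue, measured 40.4, 14.8 and 10.7 CPM in controls and between 37.0 and 46.4 CPM in treated tumors (0.95, standard error 0.51). *Slc39a10* and *Slc30a4* had log2 fold changes of 0.52 (standard error 0.41) and 0.51 (standard error 0.51), and in *Slc30a4* control 5 at 203 CPM was above every treated tumor. Without control 5, edgeR called 9 of the other zinc family genes, beside 47.7% of all genes. Among these was *Slc30a3*, which passed the filter there through the controls alone.

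**Figure D3:**
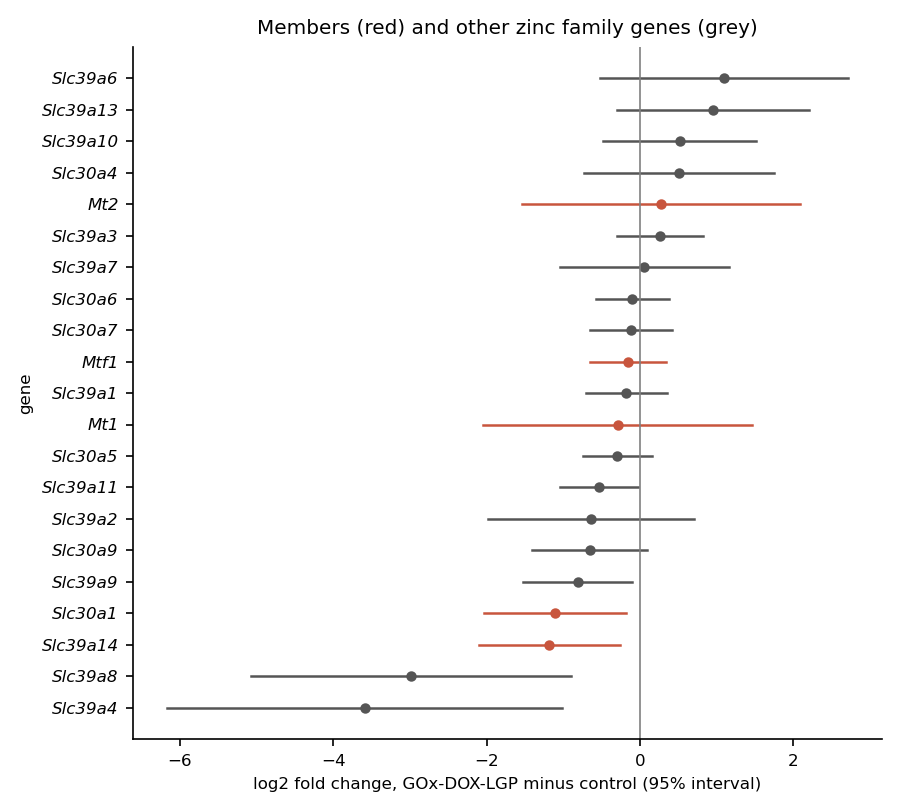
Log2 fold change of GOx-DOX-LGP minus control tumors with 95% intervals from edgeR, for the 5 members tested (red) and 16 other zinc family genes (grey), ordered by value. Intervals of *Slc39a4*, *Slc39a8*, *Slc39a14*, *Slc30a1*, *Slc39a9* and *Slc39a11* lie below 0, and none of these genes has an adjusted p under 0.05.

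The genes most like each member across the 6 libraries, by Pearson's r of log2 CPM, differed between the metallothioneins and the transporters. For *Slc30a1* they were *Pik3c2b*, *Prkaa2* and *Dmd* (r from 0.999 to 1.000), and for *Slc39a14* they were *Gfm2*, *F5*, a coagulation factor made in the liver, and *Lgr4* (r of 0.999 each). For *Mt1* they were *Bicdl1*, *P2rx6* and *Gm12989* (r from 0.967 to 0.973), and for *Mt2* *H2afy2*, *2510017J16Rik* and *Gm48653* (r from 0.981 to 0.987), all of them at low levels. For *Mtf1* they were *Fam98a*, *Mapk1ip1l* and *Psme3* (r from 0.979 to 0.981). With 6 libraries and 15374 genes, values of this size are a description only.

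**Figure D4:**
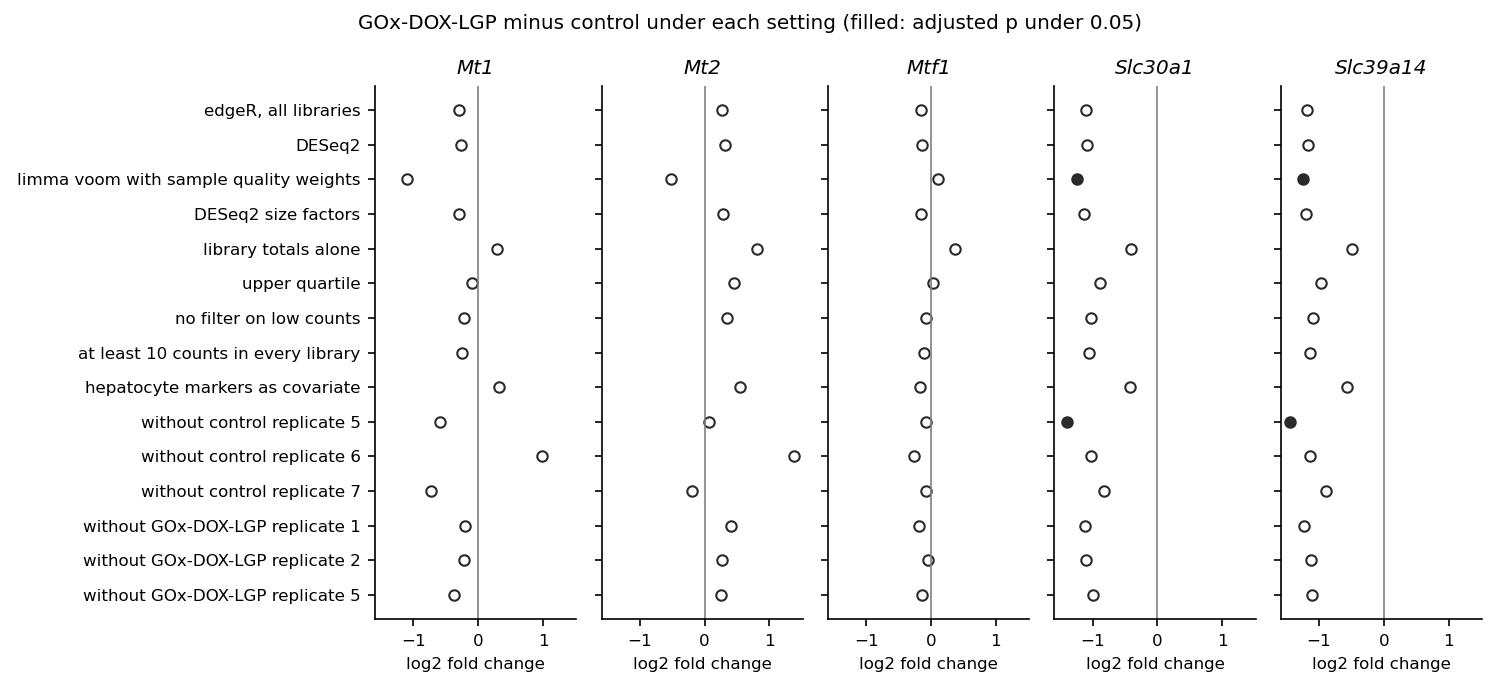
Log2 fold change of GOx-DOX-LGP minus control for the 5 members tested under each setting, filled where the adjusted p is under 0.05. *Slc30a1* and *Slc39a14* stay below 0 in all 15 settings and are filled in 2 of them, while *Mt1*, *Mt2* and *Mtf1* fall on both sides of 0.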

How the data were processed

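RNA was sequenced from 3 untreated and 3 treated tumors, which were assigned to groups by their titles. The authors deposited raw counts per gene for 55536 genes, without normalization or pooling, and a second table of signal values, which are the same counts divided by 1 size factor per library (all values came out whole within 0.01). The methods name TopHat and HTSeq, whereas the submitters' processing notes list Trimmomatic 0.38, HISAT2 2.1.0 and featureCounts 2.0.0; build, annotation and strand setting are not given in the sources used here. Positions and exon lengths were taken from GENCODE M21 (GRCm38).

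Counts were filtered with filterByExpr, scaled with TMM and then tested in edgeR 4.0.16 (R 4.3.3) by quasi-likelihood over all 6 libraries without covariates, adjusted by Benjamini-Hochberg over 15374 genes. Standard errors were taken from the F statistic, and log2 CPM used a prior count of 2. Nothing in the labels states that libraries came from separate mice, so p-values measure the spread between libraries. The fits were first tested on simulated data. Alternatives were DESeq2 1.42.0, limma 3.58.1 voom, other scalings and filters, a hepatocyte covariate and leaving out each library. Wilson intervals cover counting error only. Named genes were the 6 members, the 4 largest positive and negative changes of the other SLC30, SLC39 and metallothionein genes, 3 hepatocyte markers and the 3 genes most like each member. Genes outside this rule were named after their values were seen. The members and lists were chosen with earlier results of these data known.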

Additional observations from a re-analysis of the deposited data

How the results depend on the processing

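No gene passed an adjusted p of 0.05 in edgeR under any scaling or filter tried or with the hepatocyte covariate (between 1115 and 3784 genes had an unadjusted p under 0.05). DESeq2 called 1739 of 16513 genes with an adjusted p, and 3 of 19 other zinc family genes. Limma voom with sample quality weights called 9254 of 15374 genes and 10 of 16 other zinc family genes. Leaving out each library gave between 0 and 7745 genes, and between 0 and 9 other zinc family genes. The highest values came without control 5, where 47.7% of all genes were called. Limma voom took *Slc30a1* (-1.24, adjusted p = 0.000753) and *Slc39a14* (-1.25, adjusted p = 0.000751) past the threshold and turned *Mt2* to -0.52 and *Mtf1* to 0.11. *Mt1* had its lowest value there (-1.09, adjusted p = 0.0894 from limma voom). DESeq2 called neither *Slc39a14* (-1.16, adjusted p = 0.0622) nor *Slc30a1* (-1.09, adjusted p = 0.118). With library totals alone, which moved the median of all genes to 0.51, *Mt1* turned to 0.29, *Mtf1* to 0.37 and the median of the other zinc family genes to 0.37. There *Slc30a1* was -0.40 and *Slc39a14* -0.49, with adjusted p of 0.508 and 0.505 from edgeR. With the upper quartile, where the median of all genes was 0.19, *Mtf1* turned to 0.030 and the family median to 0.031. With the hepatocyte covariate *Mt1* turned to 0.31. Without single libraries the log2 fold change ranged from -0.72 to 0.98 for *Mt1* (highest without control 6) and from -0.19 to 1.37 for *Mt2* (lowest without control 7). It ranged from -1.39 to -0.82 for *Slc30a1* and from -1.45 to -0.90 for *Slc39a14*. For *Slc30a10*, without a filter and chosen after seeing the data, it ranged from -8.14 (without control 5, where edgeR called it) to -6.78. Control 5 had 2 counts of *Slc30a10*, against 624 and 792 in controls 6 and 7. Leaving it out thus largely fixed that call, and the share of all genes called in that fit is not given here. DESeq2 also called *Slc30a10* (-7.69), where 9.85% of genes with an adjusted p were called lower. The difference in summed metallothionein CPM ranged from -17.3 (without control 7) to 84.6 and was -24.3 with TMM-scaled CPM. The cause of these shifts was not tested. No paired analysis was made, because the labels do not pair control with treated tumors. *Mt2* could not be tested with at least 10 counts in every library, and its 6 counts in control 7 limit every statement on it.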

Other observations

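Set against *Alb* in the same library, a ratio chosen after the values were seen, *Slc30a10* had 7.17 counts per 10000 *Alb* counts in control 6 (95% Wilson interval 6.63 to 7.75) and 6.65 in control 7 (6.20 to 7.12). It had 2.49 in control 5 (2 counts, 0.682 to 9.07), 1.83 in GOx-DOX-LGP tumor 1 (7 counts, 0.885 to 3.77), 0 in tumor 2 (up to 2.0 with 3 counts) and 2.94 in tumor 5 (6 counts, 1.35 to 6.42). The treated tumors were below controls 6 and 7, but the interval of tumor 5 overlapped that of control 7, and the interval of control 5 held the values of both. *Gm2061*, annotated on the opposite strand over 9.13% of the exon bases of *Slc30a10*, had 19 and 21 counts in controls 6 and 7, and 0 in control 5, 1, 0 and 0 in GOx-DOX-LGP tumors 1, 2 and 5.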
